A study of Mus musculus with 10 samples.

Results

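Natural killer cells and cytotoxic T cells kill by touching a target, reading its surface with activating and inhibitory receptors, and releasing granules that hold a pore-forming protein (perforin) and serine proteases (granzymes). The activating receptors signal through short adaptor proteins to tyrosine kinases, and the granules then fuse with the membrane through a dedicated release machinery. Both cell types are set up by the T-box factors Eomes and T-bet, and in the healthy lung natural killer cells lie mainly in the blood vessels and capillary walls.

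The genes described are 10 of the 54532 genes in the gene-level FPKM table of whole lungs at postnatal day 30 (P30): the receptors Ncr1, Klrb1c, Klrd1 and Klrk1, the granule proteins Gzma, Gzmb, Prf1 and Nkg7, and the transcription factors Eomes and Tbx21. They were found by gene symbol. They were chosen from results of this same comparison, so their group differences are given as a description, gene by gene without a p. The lungs came from wild-type C57BL/6J mice. In the increased pulmonary flow (IPF) group, 5 pups had an aortocaval fistula made at P7, a needle puncture between the large abdominal artery and vein that sends more blood through the lungs. In the sham group, 5 pups went through the same operation without the puncture. The fistula raises flow through the whole lung, and each library is the mRNA of 1 whole lung, so every value pools all lung cells. FPKM, fragments divided by gene length and by library size, sets genes of unlike length on the same scale. Between lungs it also depends on what else a library holds, so other scalings were tried as alternatives.

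The libraries held between 15483046 and 19026843 reads on genes, and lung markers were high throughout (Sftpc, surfactant protein C, had a mean of 14900 FPKM in IPF and 14400 in sham). They were not all even: the airway gene Scgb1a1 lay at 3280 to 25900 FPKM in IPF and 11100 to 22200 in sham. Of 7 lung markers, Cldn5 alone kept the groups apart, higher in IPF. Every IPF lung expressed Xist (26.8 to 43.2 FPKM, against at most 0.0767 in sham), whereas the Y-linked Ddx3y was listed at 0 in every IPF lung and lay between 14.3 and 21.4 FPKM in sham. Clock genes divided the groups in the same way, with Arntl at 5.84 ± 1.5 FPKM (SD, n = 5) in IPF and 0.366 ± 0.0633 (SD, n = 5) in sham. Sex, clock time and operation therefore cannot be told apart in any difference below. Of the libraries, 3 stood apart: sham replicate 1, with low Tyrobp, Cd52, Coro1a and Sftpc though not Ptprc, IPF replicate 3, with high airway genes, and IPF replicate 5, with high neutrophil genes. The differences of the 10 genes are given with and without these 3. The labels do not say whether the mice of a group shared a litter, and the spread is that between these samples.

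All 10 genes passed the filter of a mean of at least 0.1 FPKM, and none was at the floor of 3 reads in any group. The mean of each was higher in IPF than in sham. By log2 fold change of FPKM + 0.1, from largest to smallest, they were Gzma, Ncr1, Prf1, Gzmb, Eomes, Tbx21, Nkg7, Klrb1c, Klrk1 and Klrd1. The order depends on the added 0.1: with 0.01 instead, Ncr1 (1.33) and Eomes (1.28) stood above Gzma (1.24). Their summed level was 19.9 to 29.2 FPKM in IPF, with a median of 22.9, and 9.82 to 16 in sham, with a median of 14.3, and the groups did not overlap. In 6 of the 10 (Ncr1, Klrk1, Gzma, Gzmb, Prf1 and Tbx21), every IPF lung lay above every sham lung, as was so for 4.52% of the 20448 genes tested. The median log2 fold change was 0.81 over the 10, and 0.0016 over all genes tested. It was 0.41 over the receptors, 1.03 over the granule proteins and 0.81 over the transcription factors. In the limma fit across all genes, 4 of the 10 (Ncr1, Gzma, Gzmb and Prf1) were past an adjusted p of 0.05, where 5.85% of genes were called in either direction and 3.71% as higher in IPF. With an added log2 fold change above 1, 3 remained (Ncr1, Gzma and Prf1), where 0.68% of genes were called as higher. Because the choice of the genes used this contrast, nothing is read from these counts, which fell as single libraries were left out, most often through Gzmb and Gzma. The 4 became 2 to 3 with 1 library left out, and both counts were 0 without the 3 libraries that stood apart. In whole lung, more cells of a type and more RNA per cell cannot be told apart.

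**Figure D1:**
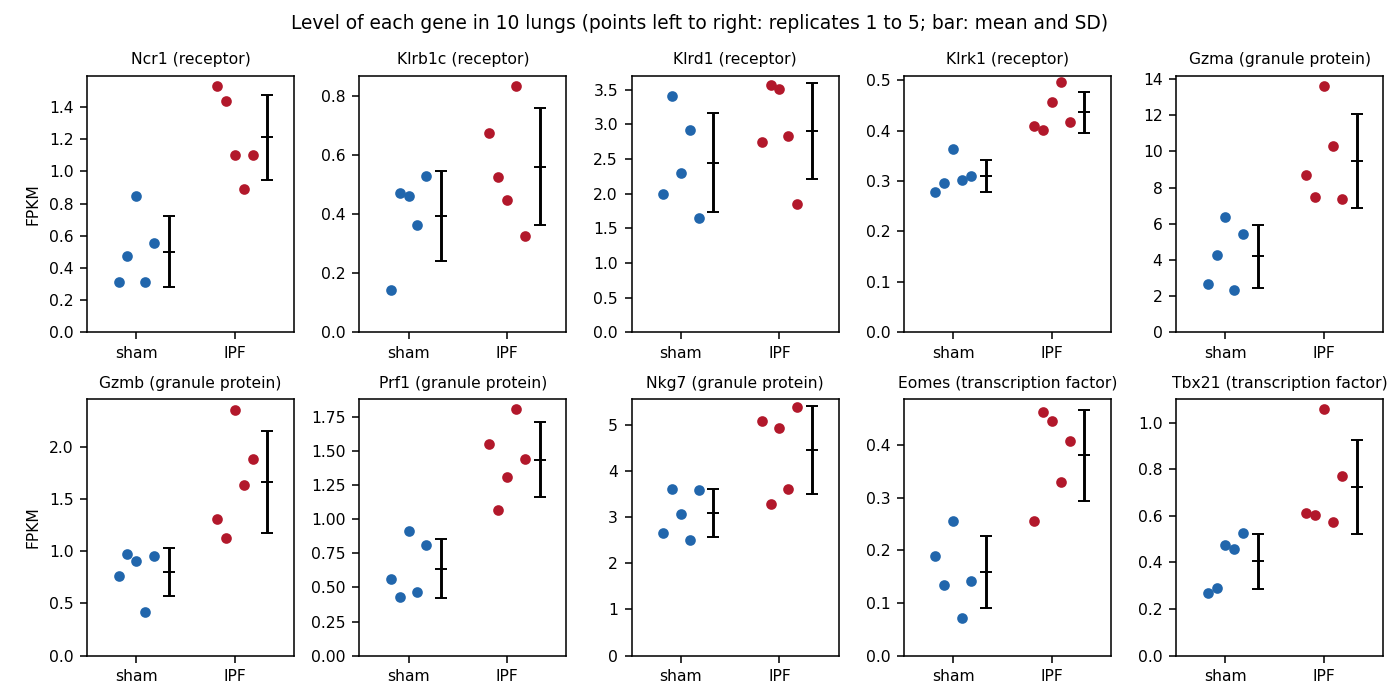
Level of each of the 10 genes in the 10 lungs. The vertical axis of each panel is FPKM from 0, points are single lungs (blue, sham; red, IPF; replicates 1 to 5 from left to right), and the bar is the mean with the SD. All IPF points lie above all sham points for Ncr1, Klrk1, Gzma, Gzmb, Prf1 and Tbx21, while Klrd1 and Klrb1c overlap widely.

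Several of the 10 genes hold the same motif letters near their start, and the stretches before the start of the 4 genes with the largest differences are shown so that these can be read. RefSeq promoter windows of GRCm38.p6, the build of the deposited positions, were found for 9 of the 10, all except Klrd1. The 250 bases before the start were searched on both strands for the RUNX letters TGTGGT, the T-box letters GGTGTGA, the ETS letters CCGGAAGT, the GAS letters TTCNNNGAA (bound by STAT proteins) and the interferon response core GAAANNGAA. Each stretch below runs 5′ to 3′ along the gene, and capitals mark the RUNX letters (TGTGGT, or ACCACA on the other strand) and, in Gzma alone, also the interferon response core.
Gzma (chr13:113100993-113101101, minus strand): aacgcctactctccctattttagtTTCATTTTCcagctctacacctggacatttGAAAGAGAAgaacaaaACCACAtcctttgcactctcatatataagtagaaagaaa
Ncr1 (chr7:4337515-4337705, plus strand): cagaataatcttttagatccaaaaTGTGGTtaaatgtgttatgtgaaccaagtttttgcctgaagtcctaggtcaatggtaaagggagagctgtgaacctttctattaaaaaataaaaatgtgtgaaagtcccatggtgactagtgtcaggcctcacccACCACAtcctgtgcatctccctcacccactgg
Prf1 (chr10:61297656-61297756, plus strand): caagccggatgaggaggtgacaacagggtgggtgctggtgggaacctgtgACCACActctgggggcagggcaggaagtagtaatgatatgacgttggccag
Gzmb (chr14:56262344-56262444, minus strand): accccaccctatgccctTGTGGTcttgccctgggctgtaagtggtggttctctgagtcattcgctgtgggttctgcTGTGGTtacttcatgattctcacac

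The RUNX letters stood in 7 of the 9 windows (Ncr1, Klrb1c, Klrk1, Gzma, Gzmb, Prf1 and Nkg7), against 14.0% of 32851 windows of the same length. RefSeq gives Ncr1 a pair of starts a few bases apart, and the one farther upstream was used for the stretch above and the positions below. Ncr1 and Gzmb held them at 2 positions each, beginning 176 and 41 bases before the start in Ncr1 and 93 and 34 bases before it in Gzmb. The interferon response core stood in 3 windows (Klrk1, Gzma and Eomes), against 7.13% of all windows. Nkg7 alone held the T-box letters (3.33% of all windows) and the GAS letters (7.02%). No window of the 9 held the ETS letters (2.88%), and the Tbx21 window held none of the 5 motifs. No 2 matches overlapped. These matches describe letters in the windows searched. They are not sites shown to be bound, and they say nothing of what set the levels in these lungs.

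**Figure D2:**
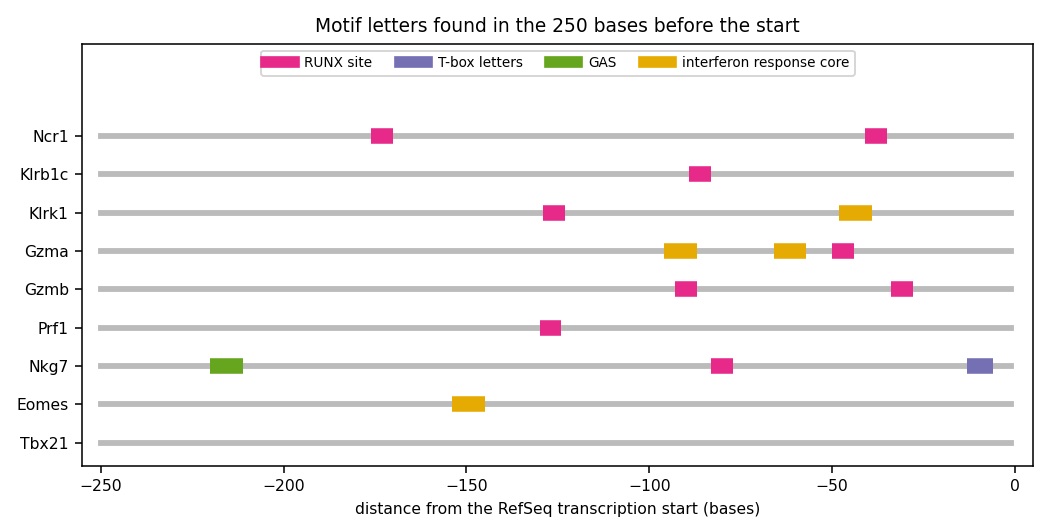
Motif letters in the 250 bases before the RefSeq start of the 9 genes with a window. The horizontal axis is the distance from the start in bases and coloured blocks are matches on either strand. RUNX letters (pink) stand in 7 of 9 windows, while Tbx21 has no match.

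Among the receptors, Ncr1 differed most. It encodes NKp46, an activating receptor that in the mouse is carried almost only by natural killer cells and related innate lymphoid cells (ENSMUSG00000062524, chr7:4337724-4345164 of GRCm38, plus strand). Its level in IPF replicates 1 to 5 was 1.53, 1.44, 1.10, 0.891 and 1.10 FPKM. In sham replicates 1 to 5 it was 0.315, 0.471, 0.849, 0.312 and 0.554 FPKM. The lowest IPF lung, replicate 4, lay just above the highest sham lung, replicate 3, so the groups did not overlap but came close. The means were 1.21 ± 0.264 and 0.5 ± 0.221 (SD, n = 5 each), a ratio of 2.42 and a log2 fold change of 1.18 (SE 0.25). The values rest on 25 to 40 reads per IPF lung and 8 to 21 per sham lung, and their variance was 1.56 times that of counting alone in IPF and 2.46 times in sham. Without the 3 libraries that stood apart, the log2 fold change was 1.13 (SE 0.31).

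Klrk1 encodes NKG2D, the activating receptor for stress-induced ligands, and it is carried by natural killer cells and CD8+ T cells (ENSMUSG00000030149, chr6:129610323-129623864, minus strand). It lay at 0.409, 0.401, 0.457, 0.497 and 0.417 FPKM in IPF replicates 1 to 5 and at 0.279, 0.295, 0.364, 0.301 and 0.310 in sham. The difference was small and regular: the groups did not overlap, the ratio of means was 1.41, and the log2 fold change was 0.39 (SE 0.16). The spread within each group was no larger than that of counting, with variance ratios of 0.468 and 0.398. Without the 3 libraries the log2 fold change was 0.36 (SE 0.22).

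In Klrb1c and Klrd1, unlike Ncr1, the groups overlapped. Klrb1c encodes the activating receptor that the antibody to NK1.1 detects in this strain (ENSMUSG00000030325, chr6:128778485-128789215, minus strand). It was measured at 0.675, 0.527, 0.447, 0.834 and 0.325 FPKM in IPF and at 0.143, 0.471, 0.463, 0.365 and 0.531 in sham. Apart from the low sham replicate 1 and the high IPF replicates 1 and 4, the groups lay together, and the log2 fold change was 0.44 (SE 0.30). Without sham replicate 1 it fell to 0.20, the lowest of the values with 1 library left out, and without the 3 libraries it was 0.47 (SE 0.22). A gene model annotated on the same strand over Klrb1c, Gm44511, held 0 reads in every lung.

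Klrd1 encodes CD94, which pairs with NKG2 proteins into inhibitory or activating receptors for Qa-1 (ENSMUSG00000030165, chr6:129591782-129598775, plus strand). It was the most abundant of the 4 receptors, at 2.75, 3.56, 3.51, 2.83 and 1.85 FPKM in IPF and 1.99, 3.40, 2.29, 2.91 and 1.64 in sham. Only 2 IPF lungs lay above all sham lungs, and the lowest of both groups were close together. Its log2 fold change of 0.25 (SE 0.22) was the smallest of the 10, and it ranged from 0.12 to 0.39 as each library was left out. Without the 3 libraries it was 0.28 (SE 0.23). Klrc1, which encodes the inhibitory partner NKG2A, had a log2 fold change of 0.93 (SE 0.36, adjusted p = 0.173, limma). Klrd1 exceeded Klrc1 by 3.20 to 10.7 times in IPF, with a median of 3.46, and by 2.92 to 24.2 times in sham, with a median of 13.0. The ratio overlapped between the groups, and the sham values rest on 5 to 17 Klrc1 reads per lung.

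Klrb1c, Klrd1 and Klrk1 lie on chromosome 6 in the natural killer gene complex, a cluster of lectin-like receptor genes. Klrd1 and Klrk1 are 11547 bases apart, and Klrb1c lies 802566 bases from Klrd1. Within 2000000 bases of Klrd1 the table lists 28 genes whose symbol begins with Klr (chr6:128609227-131247362), of which 21 passed the filter on low values. The 18 of these that are not among the 10 genes were all higher in IPF on average, with log2 fold changes from 0.07 to 1.43 and a median of 0.68. Of the 18, 1 passed the test (Klra8) and 1 had groups that did not overlap (Klre1). Over all genes tested, 3.71% were called as higher and 4.52% had every IPF lung above every sham lung. Both counts are near these shares. Members of the Klra and Klrc families are near-identical in parts, so reads could have been split among them, and their values are uncertain one by one.

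As a group, the granule proteins had the largest median log2 fold change of the 3 roles. Gzma encodes granzyme A, a trypsin-like protease, and was the most abundant of the 10 genes in both groups (ENSMUSG00000023132, chr13:113093825-113100981, minus strand). It lay at 8.70, 7.45, 13.6, 10.3 and 7.36 FPKM in IPF replicates 1 to 5. In sham replicates 1 to 5 it lay at 2.65, 4.27, 6.38, 2.33 and 5.41. IPF replicate 3 was the highest lung, sham replicates 1 and 4 were the lowest, and the groups did not overlap. The means were 9.47 ± 2.57 and 4.21 ± 1.74 (SD, n = 5 each), a ratio of 2.25 and a log2 fold change of 1.21 (SE 0.28). The spread between lungs was well above counting error, with variances 12.7 and 11.8 times those of counting. Without the 3 libraries that stood apart, the log2 fold change was 1.00 (SE 0.30).

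Prf1 encodes perforin, which forms pores in the target membrane (ENSMUSG00000037202, chr10:61297833-61304680, plus strand). It was measured at 1.55, 1.07, 1.31, 1.81 and 1.44 FPKM in IPF and 0.563, 0.432, 0.916, 0.465 and 0.812 in sham. The IPF lungs lay above the sham lungs without overlap, with the gap between IPF replicate 2 and sham replicate 3. The ratio of means was 2.25 and the log2 fold change 1.09 (SE 0.21). Without the 3 libraries it was 1.09 (SE 0.29).

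Gzmb encodes granzyme B, which cleaves caspases in the target (ENSMUSG00000015437, chr14:56258838-56262260, minus strand). It lay at 1.31, 1.13, 2.36, 1.64 and 1.89 FPKM in IPF and 0.760, 0.971, 0.911, 0.418 and 0.959 in sham, without overlap. The ratio of means was 2.07 and the log2 fold change 0.97 (SE 0.24). Its highest lungs were IPF replicates 3 and 5, and without the 3 libraries the log2 fold change was 0.72 (SE 0.28).

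Nkg7, a membrane protein of the granules that takes part in their release (ENSMUSG00000004612, chr7:43437073-43438249, plus strand), was the second most abundant of the 10. It lay at 5.08, 3.28, 4.92, 3.60 and 5.38 FPKM in IPF and 2.65, 3.60, 3.07, 2.50 and 3.59 in sham. All IPF lungs but replicate 2 lay above the sham lungs, and replicate 4 did so by less than the printed digits show. The ratio of means was 1.45 and the log2 fold change 0.51 (SE 0.16), or 0.30 (SE 0.18) without the 3 libraries.

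The proportions of the granule proteins to each other were also compared. Gzma exceeded Gzmb by 3.90 to 6.65 times in IPF, with a median of 6.24, and by 3.49 to 7.00 times in sham, with a median of 5.57. The ratio of Gzma to Prf1 was 5.10 to 10.4 in IPF and 4.71 to 9.89 in sham. In both ratios the groups overlapped over nearly their whole range.

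Eomes was the lowest of the 10 genes in both groups. It encodes eomesodermin, which is needed for mature natural killer cells (ENSMUSG00000032446, chr9:118478212-118486132, plus strand). It lay at 0.255, 0.462, 0.446, 0.330 and 0.408 FPKM in IPF and at 0.190, 0.134, 0.255, 0.0723 and 0.142 in sham. IPF replicate 1 and sham replicate 3 met at the same printed level, on 18 and 17 reads, and the other IPF lungs lay above all sham lungs. The ratio of means was 2.40, and the log2 fold change of 0.91 (SE 0.25) was pulled down by the pseudocount of 0.1, since with 0.01 it was 1.28. Without the 3 libraries it was 0.86 (SE 0.35). An antisense gene over Eomes, Gm33460, held 0 to 3 reads per lung, so few reads could have come from it.

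Tbx21 encodes T-bet, which drives the cytotoxic and interferon-γ programme of natural killer cells and type 1 T cells (ENSMUSG00000001444, chr11:97098071-97115331, minus strand). It lay at 0.614, 0.603, 1.06, 0.573 and 0.772 FPKM in IPF and 0.268, 0.291, 0.476, 0.459 and 0.527 in sham. The groups did not overlap, and IPF replicate 3 was the highest lung. The ratio of means was 1.79 and the log2 fold change 0.71 (SE 0.22), which became 0.39 (SE 0.23) without the 3 libraries. The ratio of Tbx21 to Eomes was 1.30 to 2.41 in IPF and 1.41 to 6.35 in sham, with medians of 1.89 and 2.17.

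By level within sham, Gzma, Nkg7 and Klrd1 formed the upper tier, followed by Gzmb, Prf1, Ncr1, Tbx21, Klrb1c and Klrk1, with Eomes lowest. The values of the lungs left a gap between Klrd1 and Gzmb and between Klrk1 and Eomes, while all other neighbours in the order overlapped. In IPF the order was the same. Gzma stood apart from Nkg7 at the top (9.47 ± 2.57 against 4.45 ± 0.944 FPKM; SD, n = 5), and every other pair of neighbours overlapped.

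General leukocyte genes were also higher in IPF. Ptprc, which encodes the leukocyte antigen CD45, lay at 5.93 to 6.60 FPKM in IPF and 4.10 to 5.10 in sham (log2 fold change 0.42, adjusted p = 0.00825, limma). Cd52 had 0.83 (adjusted p = 0.0379, limma) and Laptm5 0.29 (adjusted p = 0.0679, limma). A difference relative to leukocytes therefore depends on the marker chosen. Relative to Ptprc in the same lung, 8 of the 10 genes were still higher in IPF on average, with a median difference of 0.39 on the log2 scale, and no gene kept its groups apart. Klrd1 and Klrk1 changed sign, at -0.18 (SE 0.29) and -0.04 (SE 0.10). Gzma held the largest difference, 0.79 (SE 0.32), at 113 to 223% of the Ptprc level in IPF and 52.9 to 148% in sham.

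T cells carry many of the same granule genes. The summed T cell receptor constant genes Trac, Trbc1 and Trbc2 lay at 20.7 to 26.2 FPKM in IPF and 12.2 to 20.4 in sham, a log2 difference of 0.55. Relative to this sum, 6 of the 10 genes were higher in IPF, with a median difference of 0.26. Ncr1 (0.63, SE 0.16), Gzma (0.66, SE 0.23), Prf1 (0.53, SE 0.24) and Gzmb (0.42, SE 0.23) held the largest. Klrb1c (-0.11), Klrd1 (-0.30), Klrk1 (-0.16) and Nkg7 (-0.05) turned negative. As a plain ratio, Ncr1 alone kept the groups apart, narrowly, at 4.19 to 5.97% of the sum in IPF and 2.27 to 4.16% in sham, and with the pseudocount these groups overlapped as well.

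**Figure D3:**
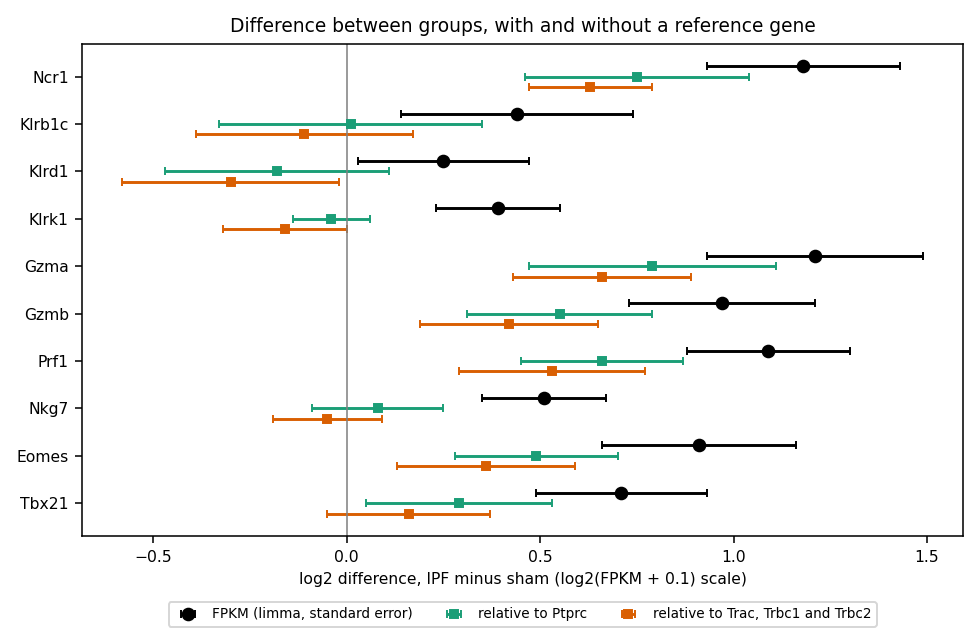
Difference between groups for each gene, as log2(FPKM + 0.1) with its standard error from limma (black), and after dividing by Ptprc (green) or by the summed Trac, Trbc1 and Trbc2 (orange) of the same lung, with the standard error of the difference of means. The black points lie between 0.25 and 1.21, and relative to the T cell receptor genes Klrb1c, Klrd1, Klrk1 and Nkg7 fall below 0.

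Of the whole T cell list, 11 of 12 genes were higher in IPF and 2 passed the test, Trbc2 (log2 fold change 0.65, adjusted p = 0.00820, limma) and Cd4 (0.48, adjusted p = 0.0440, limma). The call of Cd4 held in 1 of the 10 fits with 1 library left out (that without IPF replicate 5) and not without the 3 libraries. The summed list lay at 33.4 to 42.1 FPKM in IPF and 21.7 to 33.1 in sham, and no gene of it was at 0. Cd8a, the coreceptor of cytotoxic T cells, had a log2 fold change of 0.62 (SE 0.20, adjusted p = 0.103, limma), while Cd3e had 0.10 (SE 0.19, adjusted p = 0.833, limma). Of 6 γδ T cell genes, 1 rose, the receptor constant gene Tcrg-C2 (1.11, adjusted p = 0.0137, limma), and the summed list overlapped (26.6 to 34.1 FPKM in IPF, 30.1 to 39.0 in sham). Most of that sum was Sox13 (26.6 ± 2.75 against 32.6 ± 3.17 FPKM, SD, n = 5), and without it the sum was 3.17 to 4.97 FPKM in IPF and 2.11 to 4.33 in sham. The part of T cells in the level of the cytotoxic genes was not tested.

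The lists of other leukocytes are given beside these values, and their part was not tested. Of 8 B cell genes 6 rose, among them Ighm (0.96, adjusted p = 0.000338, limma), and their sum was 79.1 to 115 FPKM in IPF and 44.7 to 62.9 in sham. Of 7 monocyte genes 4 rose, among them Plac8 (1.55, adjusted p = 0.00146, limma) and Ly6c2 (1.01, adjusted p = 0.00143, limma), while their sum, which Ace dominates, overlapped at 240 to 391 and 312 to 351 FPKM. The 8 neutrophil genes were all higher on average, with a sum of 55.3 to 304 FPKM in IPF and 15.8 to 83.5 in sham, and the smallest adjusted p was 0.0924 (Mmp8, limma). Of 10 mast cell and basophil genes, which matter here because mast cells can also hold granzymes, 6 passed the filter on low values and 2 rose. These were Cpa3, mast cell carboxypeptidase (4.86 ± 2.00 against 0.909 ± 0.247 FPKM, SD, n = 5, log2 fold change 2.20, adjusted p = 0.00345, limma), and Cma1, a chymase (1.21, adjusted p = 0.0211, limma), whose call was lost without IPF replicate 1, 2 or 4. Tpsab1 held 0 to 2 reads in every lung. The sum of the 10 was 48.1 to 55.1 FPKM in IPF and 40.5 to 45.3 in sham. Most of it was Kit (39.7 ± 1.64 against 37.0 ± 2.24 FPKM, SD, n = 5), and without Kit it was 6.80 to 16.5 FPKM in IPF and 4.73 to 6.89 in sham. Of 7 genes of group 2 innate lymphoid cells, 5 were tested and Areg alone passed, falling by 0.76 on the log2 scale (adjusted p = 0.0253, limma), a call lost without IPF replicate 1, 2 or 4 or sham replicate 3 or 5. The sum of this list was lower in IPF, at 13.9 to 16.8 FPKM against 19.3 to 23.8. Areg (4.25 ± 0.865 against 7.33 ± 1.91 FPKM) and Rora, a nuclear receptor that also acts in the clock (6.16 ± 1.43 against 8.67 ± 1.27 FPKM; SD, n = 5), made up most of that difference, while Gata3 had a log2 fold change of 0.09.

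Around the 10 genes, 128 companion genes were listed in 8 groups by role. Of these, 115 passed the filter on low values, 98 were higher and 17 lower in IPF, 16 rose and 1 fell in the test across all genes, and the median log2 fold change was 0.33. Of all 20448 genes tested, 10298 were higher in IPF, 3.71% rose, and the median was 0.0016, so a group with 1 of 25 genes risen is near that share. Genes that rose were spread over all 8 groups, with 1 to 4 in each. Of the 17 calls, 8 held both in every limma fit with 1 library left out and without the 3 libraries that stood apart: Tnfsf10, Serpinb6b, Stx11, Nfil3, Ets1, Bhlhe40, Il18r1 and Cx3cr1. Klra8 held in all 10 fits with 1 library left out but not without the 3. Itga1 held in 4 of the 10 fits and without the 3, whereas H2-T23 (4 of the 10 fits), Ctsc (3), Cd247, Cxcl10 and Spn (2 each), and Ccl4 and Fcer1g (1 each) were lost without the 3. All 8 of these were lost without IPF replicate 4, and again without sham replicate 4.

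Of 28 other natural killer receptors, 25 were tested, 24 were higher on average and 1 rose. This was Klra8, an activating Ly49 receptor (0.759 ± 0.253 against 0.247 ± 0.126 FPKM, SD, n = 5, log2 fold change 1.32, adjusted p = 0.0177, limma), on 9 to 23 reads per IPF lung and 3 to 9 per sham lung. Klre1 was higher in every IPF lung than in any sham lung, with a log2 fold change of 0.92 and an adjusted p of 0.0577 (limma). Slamf7, Slamf6 and Cd226, receptors that natural killer cells share with other lymphocytes, had log2 fold changes of 0.07, 0.02 and -0.14. The median of the group was 0.27.

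Of 15 signalling genes beneath the receptors, 14 were tested and all were higher on average, with a median of 0.34. Cd247, the ζ chain used by NKp46 and by the T cell receptor, rose (log2 fold change 0.77, adjusted p = 0.0414, limma), as did Fcer1g, the other adaptor of NKp46 and a chain of Fc receptors in myeloid cells (0.41, adjusted p = 0.0468, limma). Tyrobp, the adaptor DAP12, was 48.9 ± 3.55 FPKM in IPF and 32.0 ± 8.90 in sham (SD, n = 5) without overlap, with an adjusted p of 0.0660 (limma). Hcst, the adaptor DAP10 of NKG2D, had 0.28 (SE 0.17, adjusted p = 0.396, limma), and Zap70 had 0.08 (SE 0.21, adjusted p = 0.889, limma).

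Of 17 other granule and killing genes, 11 were tested and 3 rose, with a median of 0.39. These were Tnfsf10, the death ligand TRAIL (54.1 ± 5.86 against 33.5 ± 2.77 FPKM, SD, n = 5, log2 fold change 0.69, adjusted p = 0.00146, limma), Serpinb6b, a serpin (0.35, adjusted p = 0.00786, limma), and Ctsc, the protease that activates granzymes (0.39, adjusted p = 0.0340, limma). All 3 are expressed by many lung cells, and their levels stood far above those of the granzymes. Not all granzymes went with Gzma and Gzmb: Gzmm had a log2 fold change of -0.41 (SE 0.22, adjusted p = 0.349, limma), at 0.852 ± 0.264 FPKM in IPF and 1.13 ± 0.227 in sham (SD, n = 5). Gzmk had 0.92 with an SE of 0.53, on 0 to 22 reads per IPF lung. Gzmd, Gzme, Gzmf and Gzmn were listed at 0 in all 10 lungs. Fasl had 0.71 (SE 0.33, adjusted p = 0.269, limma) on 1 to 13 reads per lung.

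Of 10 granule release genes, all tested, 1 rose: Stx11, a syntaxin of the granule fusion step (7.09 ± 0.901 against 4.40 ± 0.355 FPKM, SD, n = 5, log2 fold change 0.67, adjusted p = 0.00240, limma). Its partners had differences near 0, with Stxbp2 at -0.08, Unc13d at -0.13 and Rab27a at 0.14 on the log2 scale, and the median of the group was 0.07. These genes are expressed by many lung cells.

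Of 15 other factors, all tested, 2 rose and 1 fell, with a median of 0.25. Nfil3, which is required early in natural killer cell development and is also an output of the circadian clock, had the largest change of all companion genes, at 7.88 ± 1.00 FPKM in IPF and 2.11 ± 0.406 in sham (SD, n = 5, log2 fold change 1.87, adjusted p = 4.15e-05, limma). It moved together with the clock genes that divide the groups, and this part in its change was not tested. Ets1 rose (0.32, adjusted p = 0.01, limma), a call lost with quantile normalization, and Bhlhe40, which is also a clock gene, fell by 0.55 on the log2 scale (adjusted p = 0.00825, limma). Runx3, a RUNX factor of cytotoxic lymphocytes, had 0.25 (SE 0.14, adjusted p = 0.367, limma).

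Of 17 genes of the cytokines that drive or are made by these cells, 16 were tested and 2 rose, with a median of 0.30. Il18r1, a chain of the interleukin 18 receptor, was 26.6 ± 2.25 FPKM in IPF and 12.6 ± 1.24 in sham (SD, n = 5, log2 fold change 1.08, adjusted p = 5.36e-05, limma), and Ccl4, a chemokine of activated lymphocytes and macrophages, had 1.35 (adjusted p = 0.0441, limma) on 1 to 16 reads per lung. Il15, the cytokine that keeps natural killer cells alive, had 0.02 (SE 0.13, adjusted p = 0.952, limma), and its receptor chain Il2rb had 0.35 (SE 0.10, adjusted p = 0.0796, limma) without overlap of the groups. Ifng did not pass the filter on low values, with 0 to 5 reads per lung. Ccl5, a chemokine stored by cytotoxic cells, lay at 11.2 ± 3.41 and 6.72 ± 2.53 FPKM (SD, n = 5) with an adjusted p of 0.123 (limma).

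Of 15 migration and adhesion genes, all tested, 4 rose, with a median of 0.48. These were Cx3cr1, the fractalkine receptor of mature natural killer cells and patrolling monocytes (0.97, adjusted p = 0.00118, limma), Itga1, an integrin of resident lymphocytes and of stroma (0.31, adjusted p = 0.0340, limma), Cxcl10, an interferon-induced chemokine that attracts CXCR3+ lymphocytes (0.99, adjusted p = 0.0402, limma), and Spn, the leukocyte sialoglycoprotein CD43 (0.52, adjusted p = 0.0433, limma). S1pr5, the exit receptor of natural killer cells, was 1.46 ± 0.602 and 0.720 ± 0.248 FPKM (SD, n = 5), with an adjusted p of 0.123 (limma), and Itga2 had a log2 fold change of -0.0028. Of 11 ligands of the receptors, 9 were tested and 1 rose, H2-T23, which encodes the Qa-1 molecule that the Klrd1 product binds (0.66, adjusted p = 0.0293, limma). The ligands of NKG2D that were tested went the other way without passing: Raet1e had -0.45, H60c -0.38 and Ulbp1 -0.34 on the log2 scale.

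**Figure D4:**
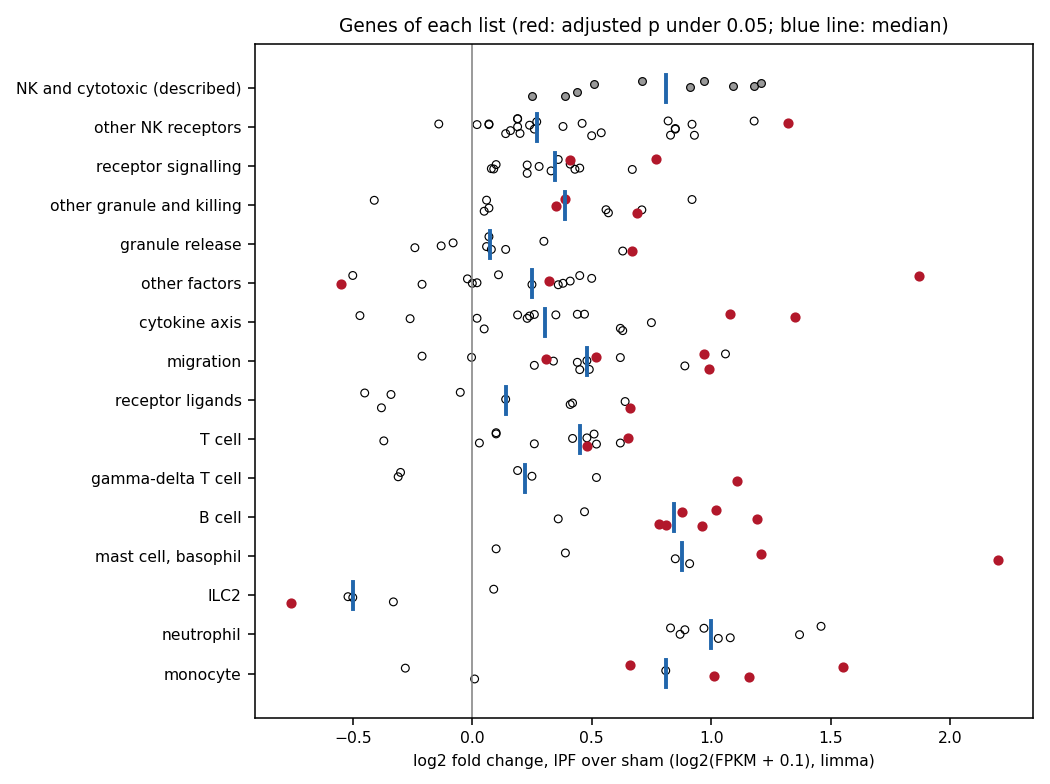
Log2 fold change of IPF over sham (horizontal axis, limma on log2(FPKM + 0.1)) of the 10 described genes (grey, no test) and of each gene in the companion and cell type lists (rows). Red points have an adjusted p under 0.05 and the blue line is the median of the list, which is 0.81 for the 10 genes, 0.27 for other natural killer receptors, 0.45 for T cell genes and 0.85 for B cell genes.

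How the 10 genes varied from lung to lung within a group does not use the difference between the groups. With the group means removed from log2(FPKM + 0.1), the median Pearson correlation over their 45 pairs was 0.29 across the 10 lungs, with a range from -0.62 to 0.74 and 33 pairs above 0. Without sham replicate 3 the median was 0.18, the lowest of the values with 1 library left out. The strongest pairs were Gzma with Gzmb (0.74), Gzma with Klrk1 (0.71) and Prf1 with Klrk1 (0.70). Klrd1 with Prf1 (-0.62) was the most negative pair. Gzma followed the mean of the other 9 genes most closely (0.97), and Klrd1 did not follow it (-0.20). Sham lungs spread more than IPF lungs: the mean deviation of the 10 genes was -0.28 in sham replicate 1, -0.27 in sham replicate 4 and 0.33 in sham replicate 3, against -0.11 to 0.19 in IPF. The lungs share depth, dissection and the other leukocytes, and several of these genes rest on few reads, so the values are given as a description. Pairs of other genes were not counted, so the median and the 33 pairs cannot be called high or low.

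**Figure D5:**
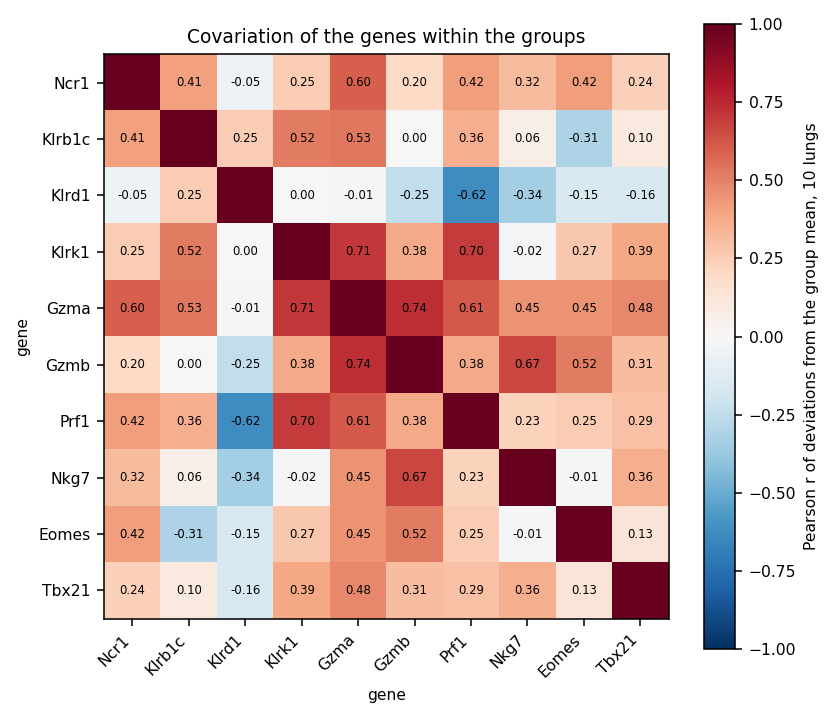
Pearson correlation of each pair of the 10 genes over the 10 lungs, after the mean of each group was removed from log2(FPKM + 0.1), with red for positive and blue for negative values. The row of Gzma is positive with all genes except Klrd1, and the Klrd1 row is mostly negative, down to -0.62 with Prf1.

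Outside the 10, 13440 genes with a mean of at least 1 FPKM were ranked by the same correlation with the mean deviation of the 10. Their median was 0.02, and 0.59 was the level that the top 5% exceeded. The 10 most alike, with correlations from 0.88 to 0.93, were Lrrc40, Ngp, Smkr-ps, Ncf4, Lias, Cryl1, Trac, Tbc1d10c, Ltf and Htra2. Trac (0.88) is a T cell receptor constant gene, whereas Ngp (0.92) and Ltf (0.88) encode neutrophil granule proteins, Ncf4 (0.90) a subunit of the phagocyte oxidase. Of genes looked at for their role, Ccl5 had 0.78, Klrc1 0.70, Trbc2 0.66, Cd8a 0.66 and S100a8, a neutrophil gene, 0.60, while Cd3e had -0.04 and Ptprc 0.00064.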

How the data were processed

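Whole-lung mRNA of 10 mice at P30, 5 IPF and 5 sham, was used, grouped by the sample labels. The FPKM table deposited by the authors has a column per mouse. By the paper's account it came from Fastp trimming, HISAT2 alignment and StringTie quantification, which was not checked. Its coordinates match GRCm38, although the methods name GRCm39. FPKM times length, divided by what a single read is worth in that library, gave whole reads for 100% of values (tolerance 0.02), 15483046 to 19026843 per sample. The floor of 3 reads covers counting error only.

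The 20448 genes averaging 0.1 FPKM or more were compared between IPF and sham with limma 3.58.1 in R 4.3.3 (trended variances, log2(FPKM + 0.1), no covariate), with Benjamini-Hochberg adjustment over all genes tested. Fold changes on this scale understate those of low genes. The code was tested on simulated data. Tables were made with Python 3.11.15, pandas 2.3.3 and numpy 2.4.6.

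The 10 genes and all lists were chosen with earlier results of these data known. Named were the 10 genes, up to 4 genes per list with the smallest adjusted p among those under 0.05, the 10 genes most alike within groups, and markers that set a list's level. From the companion lists, 1 gene is not reported here and was left out of their counts. Other companion genes named for their role, with their values, were chosen after the values were seen. Samples with the same replicate number did not deviate together (correlations from -0.0204 to 0.0953). No pair of libraries within a group was a copy (chi-square per degree of freedom of 4.49 or more). Alternatives were other pseudocounts, filters, scalings, a replicate block, no variance trend, limma voom on recovered reads, and leaving out each sample. Leaving out 3 libraries and dividing by Ptprc or by T cell receptor genes were chosen after seeing the data.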

Additional observations from a re-analysis of the deposited data

Results flagged for a closer look

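None of the 10 genes had a lung that stood far from the others of its group by the gap test for 5 samples. Of 174 groups looked at, over the 92 genes named with a level in the text, 15 held a single lung whose gap to its nearest neighbour exceeded the critical share of the group's range (0.71), a test that flags about 1 in 20 groups by chance. In IPF replicate 3, Trac was 7.64 FPKM (5.72 to 6.22 in the other IPF lungs) and Smkr-ps 3.03 FPKM (1.56 to 1.85). In the same lung, Zap70 was 3.31 FPKM (1.55 to 1.90), Gzmk 0.838 FPKM (0 to 0.203) and H60c 1.01 FPKM (0.383 to 0.565). In IPF replicate 2, Ncf4 was 3.77 FPKM (4.70 to 5.00), and in IPF replicate 4, Trbc2 was 9.12 FPKM (11.4 to 12.2). In IPF replicate 5, H2-T23 was 84.2 FPKM (52.5 to 59.4), Tnfsf10 43.7 FPKM (56.2 to 57.4) and S100a8 78.9 FPKM (14.3 to 20.4). In sham, Ets1 was 40.5 FPKM in replicate 1 (35.9 to 36.9), where Cd3e was 0.877 FPKM (0.771 to 0.795) and Sftpc 9440 FPKM (14900 to 16500). In sham replicate 5, Stx11 was 5.02 FPKM (4.18 to 4.39) and Ifng 0.253 FPKM (0 to 0.0468).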

How the results depend on the processing

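Of 215 values of single genes under an alternative, 190 stayed within the spread between replicates, 19 moved further without changing sign, and 6 changed sign, all 6 relative to a reference gene (relative to Ptprc, Klrd1 to -0.18 and Klrk1 to -0.04; relative to Trac, Trbc1 and Trbc2, Klrb1c to -0.11, Klrd1 to -0.30, Klrk1 to -0.16 and Nkg7 to -0.05). Another filter, no variance trend or a replicate block cannot change the fold change of a single gene here. The values under them are among the 190 by design. The median log2 fold change of the 10 genes, 0.81, became 0.35 with a pseudocount of 1, 0.39 relative to Ptprc and 0.26 relative to the T cell receptor genes. The 10 genes were chosen from this same contrast and the fits share lungs, so nothing is read from how many of them were called. The 4 past the threshold became 2 to 3 with 1 library left out (2 without IPF replicate 1, 3 or 4 or sham replicate 1). Of the 10 such fits, Prf1 was past it in 10, Ncr1 in 9, Gzma in 6 and Gzmb in 1. Without IPF replicates 3 and 5 and sham replicate 1 the count was 0, where 5 had an unadjusted p under 0.05 in limma. No other tool was run on those 7 lungs, and voom on the recovered reads of all 10 lungs gave 5. With no variance trend 4 were past the threshold, but these were Ncr1, Klrk1, Prf1 and Eomes, without Gzma and Gzmb. The 3 past both limits became 1 with a pseudocount of 1, 5 with voom and 0 without the 3 libraries. The 17 companion genes became 9 with no filter, 10 with no variance trend, 22 with a mean FPKM of at least 1, 25 with voom and 9 to 20 with 1 library left out (9 without IPF replicate 4 or sham replicate 4, 11 without IPF replicate 3 or sham replicate 2 or 3), and the 1196 genes called among all became 775 (without IPF replicate 4) to 1620 (without IPF replicate 5). With a replicate block 3 of the 10 genes, 16 companion genes and 1045 genes in all were called. The median of 0.81 could not change in this balanced layout. The replicate numbers name samples and do not pair them. Why these counts moved was not tested. Low reads limit what can be told of Eomes, Ncr1, Klrb1c and Klra8 (3 to 45 per lung). The same holds in sham for Gzmb (10 to 25 per lung) and Tbx21 (11 to 20). It holds more so for Ccl4, Fasl and Gzmk, which had as few as 0 or 1.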
